A study of Arabidopsis thaliana with 6 samples.

Results

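Class III peroxidases are secreted plant enzymes that use hydrogen peroxide, and a list of 60 *Arabidopsis* genes of this family was measured in chilled wild type (WT) and *fbs1–1* seedlings. A gene was followed through the probe set, a group of short probes on the array, that is tied to that gene alone. Such a probe set was found for 46 of the 60 genes, out of 13590 genes of the whole array that have one, and no listed gene has several. Of these 46 genes, 45 were tied by the annotation table of the array. *RCI3* (AT1G05260) was tied only through the study's lists of changed genes, used here as a probe map, so that it is a gene the study had called on these same arrays. A further 6 listed genes share a probe set with another gene of the family, and 8 had no probe set in either source: AT1G05240, AT1G05250, AT1G14540, AT3G32980, AT5G06720, AT5G22410, AT5G42180 and AT5G67400.

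RNA came from whole 12 day-old seedlings that had spent 5 days at 24 °C and then 7 days at 10 °C, and each genotype was hybridized to 3 Affymetrix ATH1 arrays. The *fbs1–1* line carries a transposon in the first intron of *FBS1*, a gene for an F-box protein, and it is a single insertion line, so that other differences between the lines cannot be told apart from the loss of *FBS1*. Both genotypes were chilled, and no seedlings kept at 24 °C were analysed here. The labels give the No-0 background for all arrays, while the array names of the 3 WT arrays carry Nd0. The labels call the samples biological replicates without saying whether they came from separate sowings, so that p-values measure the spread between these samples.

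Class III peroxidases work in the cell wall and the apoplast. With hydrogen peroxide they oxidize monolignols, the building blocks of lignin, and link extensins and other wall polymers, which stiffens the wall, and they can also produce reactive oxygen species, which loosen walls during cell expansion and act in defense. Many genes of the family are transcribed mostly in roots, in vessels, the endodermis or root hairs, and some respond to cold.

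The deposited values are log2 intensities normalized by Robust Multi-array Average (RMA), and the number of arrays limits their precision. The arrays were alike, with medians of 2.62 to 2.72 and 40.2% to 40.8% of probe sets below 2. A value of 2 is called the low end of the scale here, because no detection calls were used. Differences are given as *fbs1–1* minus WT on the log2 scale with the standard error (SE) of limma, a linear model test, with p-values adjusted by the Benjamini-Hochberg method over all 22746 probe sets. A probe set counted as higher or lower where the adjusted p was under 0.05. No probe set was tied to *FBS1* in the sources used here, and its own level was not analysed here.

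Of the 46 peroxidase genes, 6 were higher in *fbs1–1*, 2 were higher in WT and 38 did not pass the test, while 3.25% of all probe sets passed in either direction. The 6 genes are 13.0% of the measured members, beside 1.68% of all probe sets called higher in *fbs1–1*. The 2 genes are 4.35% of the members, beside 1.57% of all probe sets called higher in WT. Without *RCI3*, 5 of 45 genes were higher in *fbs1–1* and 2 were lower, beside 1.41% and 1.37% of the 13513 probe sets that the array annotation ties to 1 gene. At least 2-fold differences that passed were found in 5 members higher in *fbs1–1*, beside 0.532% of all probe sets, and in 1 higher in WT, beside 0.51%. Rank products, the test named in the study's methods, called 7 members higher in *fbs1–1*, beside 1.16% of all probe sets, and 1 higher in WT, beside 1.19%. All 3 *fbs1–1* arrays lay above all 3 WT arrays for 13 members, beside 10.8% of all probe sets, and below them for 7 members, beside 8.94%. The median difference of the members was 0.17, and that of all probe sets was 0.0077, and without WT replicate 1 the members' median was 0.088. The differences ranged from -1.17 for AT5G58390 to 2.23 for AT1G34510, with 29 positive and 17 negative, beside 52.0% positive over all probe sets and 53.3% over those with a mean of 2 or more. Of the 46 members, 11 were below 2 on all 6 arrays and none of these passed the test, their differences lying between -0.32 and 0.18. By chromosome, the genes higher in *fbs1–1* were 2 of 8 measured on chromosome 1, 1 of 10 on chromosome 4 and 3 of 17 on chromosome 5, and none of the 7 on chromosome 2 or the 4 on chromosome 3.

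**Figure D1:**
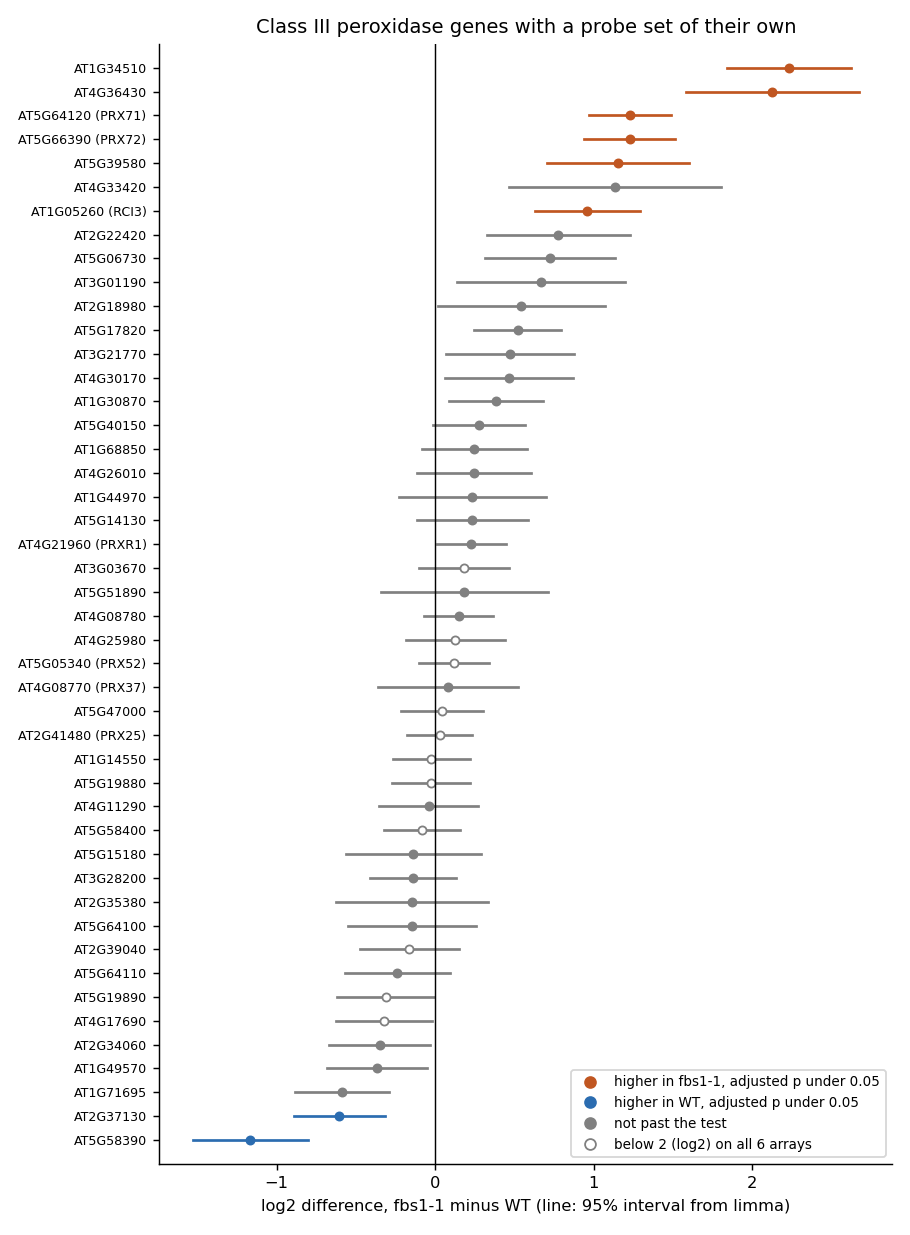
Log2 difference (*fbs1–1* minus WT) of each of the 46 peroxidase genes with a probe set of its own, with the 95% interval from limma. The 6 orange genes were higher in *fbs1–1* and the 2 blue genes higher in WT, and the 11 open circles were below 2 on all arrays and lie close to 0.

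The levels of genes that mark other tissues are given here, since whole seedlings hold roots and shoots, and in such samples fewer cells of a type and less RNA per cell cannot be told apart. Among 28 leaf marker genes, 9 were measured and none passed the test, with a median difference of -0.19 and the smallest adjusted p at 0.059 for *PSAN*, a photosystem I subunit (difference -0.74). Their summed level (on the linear scale) was 10130 to 11304 in WT and 9096 to 10103 in *fbs1–1*, ranges that did not overlap. Of 16 root hair marker genes, 2 were measured, the expansins *EXPA7* (difference 0.23, adjusted p = 0.377) and *EXPA18* (0.24, adjusted p = 0.494), and neither passed. Their summed level was 18.3 to 22.3 in WT and 22.7 to 25.8 in *fbs1–1*. Of 14 root tissue markers, the sulfate transporter *SULTR1;2* alone was measured, and it was 1.78 higher in *fbs1–1* (SE 0.24, adjusted p = 0.00656). This gene is also induced by sulfur limitation, and it was tied only through the study's lists of changed genes. The part of root and shoot proportions in the peroxidase differences was not tested.

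Among the genes with a probe set of their own, the largest rise was that of AT1G34510, for which no role is given here. It read 1.57, 1.68 and 1.49 on the WT arrays 1 to 3 and 4.19, 3.46 and 3.79 on the *fbs1–1* arrays 1 to 3. All WT values lay in a narrow band at the low end of the scale, and all *fbs1–1* values lay well above it. The difference was 2.23 (SE 0.17, 4.70-fold, adjusted p = 0.000395), the smallest adjusted p among the members. Since the WT mean was below 2, the fold depends on how RMA scales dim probe sets.

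AT4G36430 rose by nearly the same amount. Its values were 2.97, 3.48 and 2.81 in WT and 4.71, 5.39 and 5.54 in *fbs1–1*. The genotypes were separated by more than the range within either of them, and *fbs1–1* replicate 1 was the lowest of the mutant arrays. The difference was 2.13 (SE 0.24, 4.37-fold, adjusted p = 0.00269). Both genes kept their call when each array was left out in turn.

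**Figure D2:**
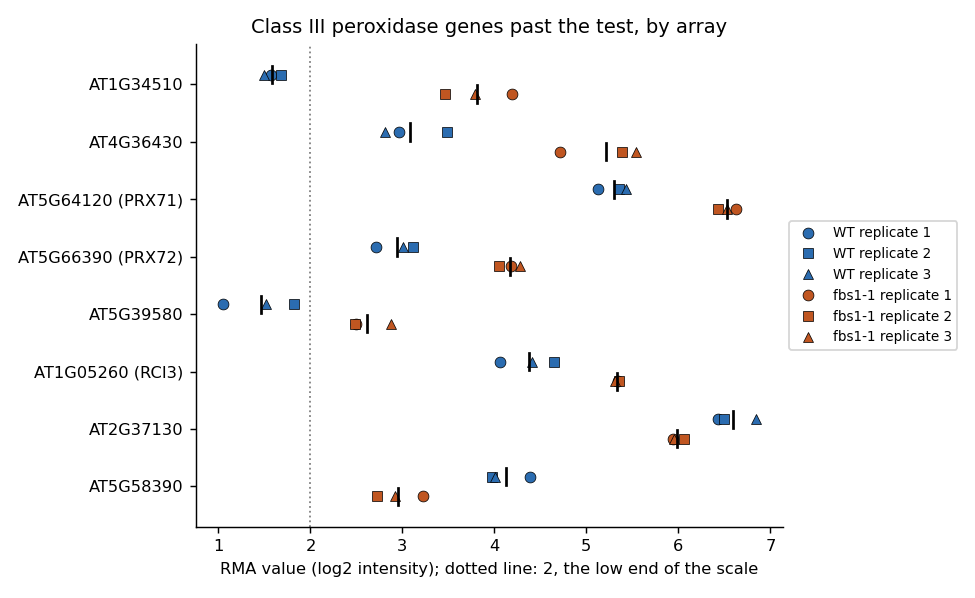
RMA values (log2 intensity) on each array of the 8 peroxidase genes that passed the test, with WT in blue, *fbs1–1* in orange, symbols for replicate number and a black bar for each genotype mean. The upper 6 genes lie higher in *fbs1–1* and the lower 2 higher in WT, with no overlap between genotypes in any row, and the dotted line marks 2, the low end of the scale.

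Of 10 peroxidases with a role in lignin formation 7 were measured, and 2 of these were higher in *fbs1–1*, beside 1.68% of all probe sets. All 7 differences were positive, beside 52.0% of those of all probe sets. That of AT5G51890 turned negative without WT replicate 1 (-0.11), and that of PRX25 (AT2G41480) reached -0.001 when 1 array was left out. Of the 7 genes, 2 (PRX25 and *PRX52*) were below 2 on all arrays, where the sign of a difference says little. The median difference of the 7 was 0.78, beside 0.17 for all 46 members. The list was drawn up with earlier results of these data known, and its count is a description.

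PRX71 (AT5G64120), which takes part in lignification and in the response to cell wall damage, read 5.12, 5.36 and 5.43 in WT and 6.63, 6.44 and 6.53 in *fbs1–1*. Every mutant array was about 1 log2 unit or more above every WT array. The difference was 1.23 (SE 0.11, 2.34-fold, adjusted p = 0.000977). PRX72 (AT5G66390), a peroxidase of stem lignification whose loss lowers syringyl lignin, read 2.71, 3.11 and 3.005 in WT and 4.19, 4.05 and 4.28 in *fbs1–1*. Its groups were also far apart, and the spread was smaller in *fbs1–1* than in WT. Its difference was likewise 1.23 (SE 0.13, 2.34-fold, adjusted p = 0.00174), and both calls remained without any 1 array.

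AT4G33420, which is needed for normal lignification of vessels, read 2.03, 3.16 and 3.22 in WT and 3.93, 3.71 and 4.18 in *fbs1–1*. The groups did not overlap, but WT replicate 1 stood more than 1 log2 unit below the other WT arrays. The difference was 1.14 (SE 0.29, adjusted p = 0.0886), short of the threshold. Without WT replicate 1 it was 0.75 with an adjusted p of 0.0363, and rank products called it (percentage of false prediction 0.00606). On simulated data rank products made more false calls than limma, 45 against 3.

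AT2G22420, a peroxidase of lignified tissue under the control of the regulator AGL15, read 2.55, 2.80 and 2.99 in WT and 3.71, 3.11 and 3.86 in *fbs1–1*. The mutant arrays were above all WT arrays, with *fbs1–1* replicate 2 close to WT. The difference of 0.78 did not pass (SE 0.20, adjusted p = 0.0856), and it passed without *fbs1–1* replicate 2 (adjusted p = 0.0252).

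AT5G51890, another gene of vessel lignification, read 3.57, 4.53 and 4.38 in WT and 4.53, 4.22 and 4.27 in *fbs1–1*. WT replicate 1 was again the lowest and the other 5 arrays were intermingled. The difference was 0.18, with a 95% interval of -0.34 to 0.71 (adjusted p = 0.807). *PRX52*, which acts in interfascicular fiber lignification, and PRX25, a stem peroxidase, were below 2 on all arrays, with differences of 0.12 and 0.03. A fall could not have been seen at that level.

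The cold and root hair genes of the family were few on the array. *RCI3* encodes a peroxidase that is induced by cold and raises tolerance to dehydration when overexpressed. It read 4.06, 4.65 and 4.41 in WT and 5.34, 5.35 and 5.31 in *fbs1–1*. The mutant arrays were almost identical and all WT arrays were lower, WT replicate 1 most of all. The difference was 0.96 (SE 0.14, 1.95-fold, adjusted p = 0.0106). The call was lost without *fbs1–1* replicate 2 or 3, with adjusted p-values up to 0.0558.

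Of 6 genes known from root hair growth, 3 were measured and 1 of them was higher in *fbs1–1*, beside 1.68% of all probe sets. AT5G39580, which promotes root hair growth at low temperature, read 1.05, 1.82 and 1.51 in WT and 2.50, 2.48 and 2.87 in *fbs1–1*. All WT values were below 2 and all mutant values above it. The difference was 1.16 (SE 0.20, 2.23-fold, adjusted p = 0.0179), and the call was lost without WT replicate 3 or *fbs1–1* replicate 2 or 3 (adjusted p up to 0.0855).

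AT5G64100, which acts in the same low temperature response of root hairs, read 6.50, 6.57 and 6.32 in WT and 6.51, 6.54 and 5.89 in *fbs1–1*. The genotypes overlapped, and *fbs1–1* replicate 3 alone was low. Its difference was -0.15, with a 95% interval of -0.55 to 0.26 (adjusted p = 0.797). AT4G26010, another root hair peroxidase, read 6.07, 5.80 and 5.55 in WT and 6.29, 5.88 and 5.996 in *fbs1–1*. The groups overlapped here too, with a difference of 0.25 (95% interval -0.11 to 0.60, adjusted p = 0.56).

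Only 2 members were higher in WT by the test, and no role is given for either here. AT5G58390 read 4.39, 3.97 and 4.00 in WT and 3.22, 2.72 and 2.92 in *fbs1–1*. All mutant arrays were lower, and replicate 1 was the highest array of each genotype. It fell by 1.17 in *fbs1–1* (SE 0.16, 2.25-fold, adjusted p = 0.00694), a call kept without any 1 array.

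AT2G37130 read 6.43, 6.50 and 6.84 in WT and 5.95, 6.06 and 5.95 in *fbs1–1*. The mutant values were close together and lay below all WT values, of which WT replicate 3 was the highest. It fell by 0.60 (SE 0.12, 1.52-fold, adjusted p = 0.0382). When 1 array was left out, this call was kept without WT replicate 1 and lost without each of the other 5 arrays, with adjusted p-values up to 0.157.

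AT1G71695 came next, with 6.08, 6.10 and 5.84 in WT and 5.42, 5.61 and 5.21 in *fbs1–1*. The groups were apart, all mutant arrays being lower. The difference was -0.59 (SE 0.13, adjusted p = 0.0504), and it passed under 7 of 9 other settings but in none of the 6 fits that left out 1 array (adjusted p 0.0623 to 0.186). Just outside the threshold on the other side was AT5G17820, a peroxidase repressed by UPBEAT1 in the control of root growth.

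AT5G17820 read 6.19, 5.98 and 5.84 in WT and 6.61, 6.38 and 6.59 in *fbs1–1*. All mutant arrays were higher by a modest margin, with a difference of 0.52 (SE 0.12, adjusted p = 0.0585). AT4G11290, a further target of UPBEAT1, overlapped between genotypes and differed by -0.04 (95% interval -0.35 to 0.27, adjusted p = 0.94).

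Among the remaining members, AT5G06730 and AT3G01190 had the largest differences. AT5G06730 read 1.29, 1.69 and 1.63 in WT and 1.95, 2.21 and 2.62 in *fbs1–1*, a difference of 0.73 (adjusted p = 0.0772) with the WT values at the low end. AT3G01190 read 2.64, 3.53 and 3.51 in WT and 3.66, 4.06 and 3.96 in *fbs1–1*, a difference of 0.67 (adjusted p = 0.209). Both had separate groups, and in both WT replicate 1 was the lowest array. PRXR1 (AT4G21960) read 9.80, 9.96 and 9.75 in WT and 10.00, 10.09 and 10.10 in *fbs1–1*. All its mutant arrays were higher, but by only 0.23 on average (95% interval 0.01 to 0.45, adjusted p = 0.317).

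In 2 groups of neighbouring peroxidase genes, which can be tandem copies, a called gene stood next to genes that did not pass. The list holds 14 pairs of neighbours, and in 6 of them both genes had a probe set of their own. In the group of AT5G64100, AT5G64110 and PRX71 (AT5G64120), PRX71 rose as above. AT5G64110 read 1.93, 2.48 and 2.05 in WT and 1.96, 1.94 and 1.85 in *fbs1–1*. Its arrays overlapped and its difference was -0.24 (adjusted p = 0.537), like the overlap seen for AT5G64100.

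The difference of AT5G64110 minus that of PRX71 was -1.47, and that of AT5G64100 minus that of PRX71 was -1.38. A two-sided exact permutation test of each gave p = 0.1 (0.2 after adjustment over the 6 pairs), which is the smallest value that 3 against 3 arrays allow, so that the design could not reach the threshold. AT5G58400 next to the falling AT5G58390 read 1.30, 1.49 and 1.22 in WT and 1.22, 1.34 and 1.20 in *fbs1–1*. All these values were below 2, so that a fall could not have been seen, and the difference between the neighbours (-1.08) had the same exact p of 0.1. The other 3 pairs, AT4G08770 (PRX37) with AT4G08780, AT5G19880 with AT5G19890 and AT5G64100 with AT5G64110, had differences between neighbours of -0.07, 0.28 and 0.09, with exact permutation p-values of 0.7, 0.2 and 0.9.

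**Figure D3:**
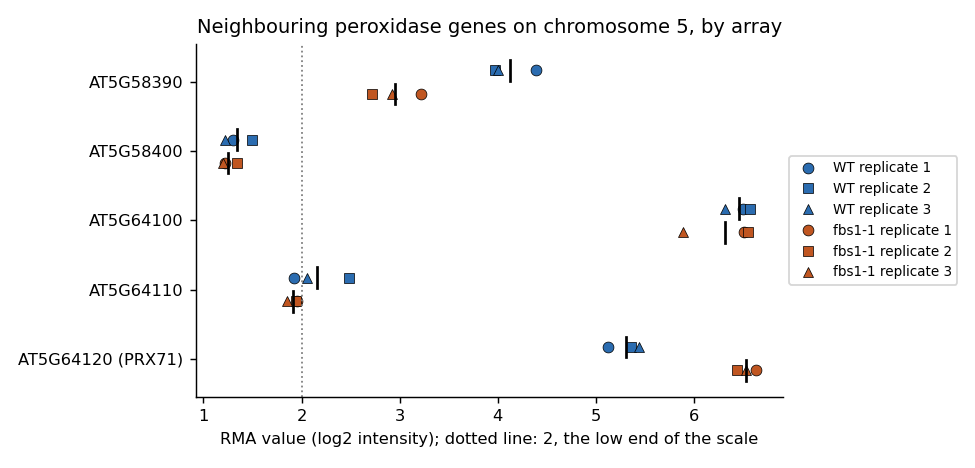
RMA values (log2 intensity) on each array of neighbouring peroxidase genes in 2 groups on chromosome 5, with WT in blue, *fbs1–1* in orange and a black bar for each genotype mean. PRX71 is higher in *fbs1–1* while AT5G64100 and AT5G64110 overlap between genotypes, and AT5G58390 is lower in *fbs1–1* while AT5G58400 lies below 2 on all arrays.

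The arrays fall into 2 sets by the array numbers in the labels, 43 and 45 for replicate 1 of each genotype and 59 to 62 for the other 4, and each set holds both genotypes. What the numbers mark is not stated. Of the 35 members that were not below 2 on all arrays, 23 had a more positive difference in the replicate 1 set and 12 in the second set. The sign is kept in this count, so that for a falling gene more positive means a smaller fall. The median difference of these members was 0.52 in the replicate 1 set and 0.23 in the second set. Neither the count nor the medians were computed over all probe sets, so that they cannot be called particular to the peroxidases. WT replicate 1 was the lowest WT array for 21 of the 35 members, beside 37.8% of all probe sets, and its median deviation from the WT mean was -0.18 over these members and 0.0054 over all probe sets.

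With the array set as a block in the fit, 10 members were higher in *fbs1–1* and 3 were lower. The 4 members added to those higher in *fbs1–1* were AT4G33420, AT5G06730, AT3G01190 and AT5G17820. Over all 22746 probe sets the counts rose too, from 382 higher and 358 lower to 650 and 569. In the second set alone 6 members were higher and 1 was lower, the call of AT2G37130 being lost. Beside these, 333 probe sets over the whole array were higher and 288 lower. Since their genotypes do not overlap, the 8 called genes had to keep their sign in each set, and only the sizes are given. AT1G34510 differed by 2.62 in the replicate 1 set and 2.04 in the second, PRX71 by 1.51 and 1.09, and *RCI3* by 1.28 and 0.80. AT5G51890 changed sign, from 0.96 in the replicate 1 set to -0.20 in the second. The replicate 1 set has 1 array per genotype, and its values carry no test.

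**Figure D4:**
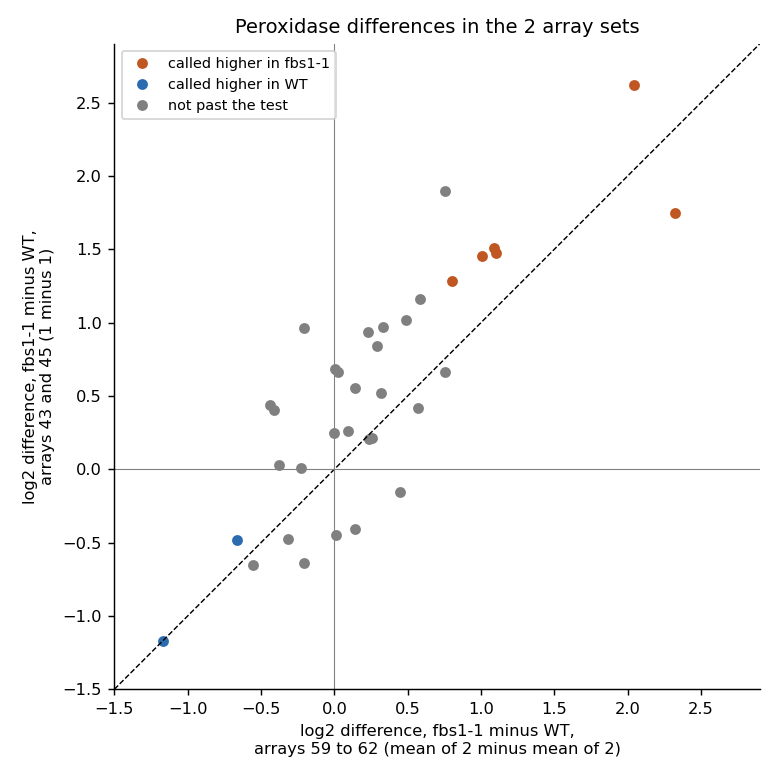
Log2 difference (*fbs1–1* minus WT) of the 35 peroxidase genes not below 2 on all arrays, in the second array set on the x axis and the replicate 1 set on the y axis, with the dashed line marking equal differences. Of the 35 points, 23 lie above the line, and the 6 orange points were higher in *fbs1–1* and the 2 blue points higher in WT, with signs that their separate groups fix in both sets.

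Probe sets that several peroxidase genes share are counted apart from the 46 genes. The probe set shared by AT2G18140 and AT2G18150 read 3.18, 3.85 and 2.16 in WT and 5.05, 5.64 and 5.58 in *fbs1–1*. All mutant arrays were higher, and the WT arrays were widely spread. The difference was 2.36 (SE 0.37, 5.15-fold, adjusted p = 0.0129), and the call was lost without *fbs1–1* replicate 2 or 3 (adjusted p up to 0.0711).

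The probe set shared by *PRXCA* (AT3G49110) and *PRXCB* (AT3G49120), the peroxidases of the oxidative burst in defense, was tied through the study's lists. It read 5.98, 6.51 and 6.60 in WT and 7.63, 7.87 and 7.99 in *fbs1–1*. The genotypes were clearly apart, and WT replicate 1 was the lowest array. The difference was 1.47 (SE 0.17, 2.76-fold, adjusted p = 0.00324), kept without any 1 array. Neither gene is on the list of 60, and the array cannot say which gene of a shared probe set changed.

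The probe sets shared by AT2G38380 with AT2G38390 and by AT4G37520 with AT4G37530 each differed by 0.02 with overlapping arrays. A further 13 genes of the 73 in the family are outside the list. Of these, 10 had a probe set of their own, 9 of which were below 2 on all arrays. None passed the test, and their differences lay between -0.25 and 0.14.

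Genes that work beside the peroxidases were counted on lists that the array annotation covers only in part. Dirigent proteins guide the coupling of the monolignol radicals that peroxidases and laccases make, and 15 of 23 were measured, of which 3 were higher in *fbs1–1* and 1 was lower, with a median difference of 0.21. Over all probe sets 1.68% were higher and 1.57% lower. Tied by the array annotation alone, 2 of 14 were higher and 1 was lower, with a median of 0.12. AT4G11190 read 3.79, 4.13 and 3.92 in WT and 5.60, 5.16 and 5.40 in *fbs1–1*. Its groups were far apart, with a difference of 1.44 (SE 0.14, adjusted p = 0.00122). AT4G13580 was 0.83 higher (SE 0.11, adjusted p = 0.00555), and *DIR6*, a dirigent protein of lignan synthesis tied through the study's lists, 1.19 higher (SE 0.22, adjusted p = 0.0242). AT1G65870 went the other way and fell by 1.66 (SE 0.21, adjusted p = 0.00445).

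Extensins are wall proteins that peroxidases cross-link. Of 16 genes on this list 9 were measured, 8 of them with a positive difference, beside 52.0% of all probe sets, and a median of 0.33. None passed the test (smallest adjusted p = 0.0575, AT1G23720, difference 0.55). Several of these probe sets, that of AT1G23720 among them, are of a type whose probes may also match related genes. Their differences may therefore not be separate readings. Of the laccases, which also oxidize monolignols, 2 of 17 were measured and 1 was higher in *fbs1–1*, beside 1.68% of all probe sets. This was *LAC3*, 1.34 higher (adjusted p = 0.00656) and again tied through the study's lists. Tied by the array annotation alone, 0 of 1 laccase passed. Monolignol synthesis had 3 of 18 genes measured and 1 was lower in *fbs1–1*, beside 1.57% of all probe sets. This was *4CL3*, which fell by 0.79 (adjusted p = 0.0382) and is also tied through the study's lists. *HCT* and *CCR2*, which were tied by the array annotation, differed by -0.27 and 0.08 and did not pass.

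Other enzymes that consume hydrogen peroxide went down where they passed. The list of 14 also holds superoxide dismutases, which make hydrogen peroxide, but none of these was measured. Of the 14 genes 4 were measured, all ascorbate peroxidases or catalases. Of these, 3 were lower in *fbs1–1*, beside 1.57% of all probe sets, with a median difference of -1.05. Tied by the array annotation alone, 1 of 2 was lower, with a median of -0.79. *SAPX*, the stromal ascorbate peroxidase of chloroplasts, read 6.99, 7.76 and 7.66 in WT and 6.10, 6.56 and 5.97 in *fbs1–1*. All mutant arrays were lower, and it fell by 1.26 (SE 0.22, adjusted p = 0.0211). The catalases *CAT3* and *CAT1* fell by 1.42 (adjusted p = 0.0138) and 0.84 (adjusted p = 0.0466), and both were tied through the study's lists. *TAPX*, the thylakoid ascorbate peroxidase, differed by -0.31 (adjusted p = 0.254).

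The NADPH oxidases, which make the superoxide that gives rise to apoplastic hydrogen peroxide, had 3 of 10 genes measured and none passed, the smallest adjusted p being 0.22 for AT4G25090 (difference 0.39). Of 8 Casparian strip genes, the receptor kinase *GSO1* alone was measured, with a difference of -0.05 (adjusted p = 0.931).

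**Figure D5:**
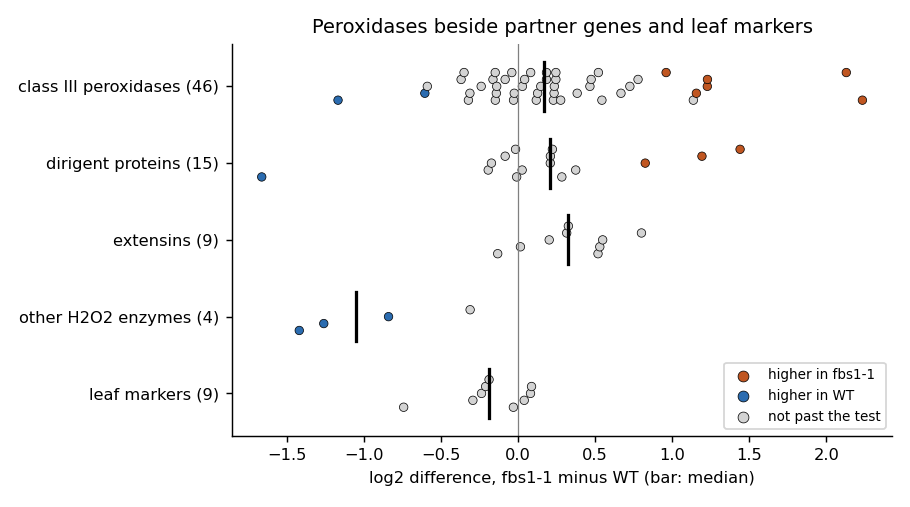
Log2 difference (*fbs1–1* minus WT) of single genes on 5 lists, with a black bar for the median of each list and the number of measured genes in brackets. Orange points were higher in *fbs1–1* and blue points higher in WT, and the medians are 0.17 for the peroxidases, 0.21 for the dirigent proteins, 0.33 for the extensins, -1.05 for the other H2O2 enzymes and -0.19 for the leaf markers.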

How the data were processed

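Whole seedlings of WT and *fbs1–1* were measured on 3 ATH1 arrays each, and groups and replicate numbers were taken from the labels. The authors normalized the arrays with RMA in R, in a version not given in the sources used here, and deposited log2 intensities per probe set. Their level is low for RMA, and the background step behind it was not stated. Members and gene lists were chosen with earlier results of these data known. The lists of extensins and dirigent proteins and some leaf markers were added later than the other lists.

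All probe sets other than 64 controls (22746 in number) were fitted with limma 3.58.1 in R 4.3.3 with genotype as the only term. The study's method, rank products, was run in an implementation of its own in Python 3.11.15 (numpy 2.4.6, pandas 2.3.3) over the 9 possible pairs of arrays from opposite genotypes, with 100 permutations at a percentage of false prediction under 0.05. Exact permutation tests were computed in Python with numpy, their adjustment over the pairs used scipy 1.17.1, and figures matplotlib 3.10.9. The fits were tested on simulated data of 22746 probe sets. There limma recovered 76.0% of the 2-fold and 98.0% of the 4-fold changes with 3 false calls. Rank products recovered 93.0% and 100.0% with 45 false calls. Whether these figures hold for dim probe sets, or where the array sets differ, was not tested. Of the tested probe sets, 8491 had no gene name and 508 had several genes.

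By the rule for named genes, every member past the test without overlap, every measured gene of the lignin, root hair and cold roles, neighbouring members, shared probe sets and up to 4 genes of each other list were named. AT1G71695, AT5G17820, AT4G11290, AT5G06730, AT3G01190, PRXR1, *HCT*, *CCR2*, *TAPX* and *EXPA18* were added after their values were seen. Alternatives covered blocks, array sets, scalings, a filter at the 40th percentile of mean value, variance models, array weights, thresholds, probe maps and leaving out each array.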

Additional observations from a re-analysis of the deposited data

Results flagged for a closer look

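Signal appeared in 2 probe sets that lie outside the 46 genes, since each matches 2 genes of the family. The probe set of AT2G18140 and AT2G18150 was 2.36 (log2) higher in *fbs1–1* than in WT, and that of *PRXCA* (AT3G49110) and *PRXCB* (AT3G49120) was 1.47 higher. Shared probe sets and family genes outside the list were flagged only if they passed the test, higher in *fbs1–1* and without overlap. That all 3 *fbs1–1* arrays lay above all 3 WT arrays in each therefore follows from this rule. Over all probe sets, 10.8% were separated in this direction, and a fall could not be flagged. The probe set of *PRXCA* and *PRXCB* was tied through the study's lists of changed genes. No group here has more than 3 arrays, so that single arrays were not tested as outliers.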

How the results depend on the processing

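Of the alternative values of single probe sets, 1354 kept their side of the threshold, 34 lost a call and 42 gained one. These counts pool the members with the shared probe sets and with the genes of other lists. Those lists are dirigent proteins, extensins, laccases, monolignol synthesis, other hydrogen peroxide enzymes, NADPH oxidases, and leaf and root tissue markers. Where the main or the alternative fit made a call, 0 reversed their sign. Sign changes without a call in either fit, as for AT5G51890, are counted among the 1354. The 6 members higher in *fbs1–1* became 10 with the array set as a block and 4 to 8 without 1 array. The 2 members higher in WT became 1 in the second array set alone, by rank products, at an adjusted p under 0.01 and with at least 2-fold. They became 3 with the array set or the replicate number as a block, with arrays centred on their median and with quantile normalization. The count was also 3 without low probe sets, with trended and robust variances and with array weights. Without 1 array it was 1 to 2, being 2 without WT replicate 1 and 1 without each other array. The members' median of 0.17 became 0.11 in the second array set, 0.25 without low probe sets, 0.11 with array weights and 0.088 to 0.17 without 1 array, the lowest without WT replicate 1.

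Over the whole array, 382 probe sets higher in *fbs1–1* and 358 higher in WT became 650 and 569 with the array set as a block, 625 and 570 with array weights, 125 and 123 at an adjusted p under 0.01, and 121 and 116 with at least 2-fold. Without 1 array the counts were 140 to 319 and 142 to 338, both lowest without *fbs1–1* replicate 3 and highest without WT replicate 1. The cause of these shifts was not tested.

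With the replicate number as a block, 11 members were higher in *fbs1–1* and 3 in WT, against 541 and 487 probe sets over the whole array. Deviations of WT and *fbs1–1* arrays of the same number from their genotype means correlated at 0.28, 0.09 and 0.14. Between replicates 2 and 3, which are in the same array set, they correlated at 0.11 and 0.14. Between replicate 1 and the others the correlations were -0.23 to -0.16. Replicates 2 and 3 were thus no closer within a number than across numbers, and the numbers were not taken to pair the samples. The values do differ by array set, which the main fit leaves out. The lowest-mean probe set of a gene was not run, because no member has several. Dim probe sets limit what can be seen: the 11 members below 2 on all arrays could hide changes at low expression.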
